A study of Saccharomyces cerevisiae with 9 samples.

Results

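The iron uptake genes of baker's yeast described here are 10 genes for transport proteins and cell wall proteins: FET3, FTR1, FET4, FIT1, FIT2, FIT3, ARN1, ARN2, SIT1 and ENB1. They were taken as the probes whose systematic name is the open reading frame of one of these genes, which gave 10 of the 6199 genes with a probe on the array, and all 10 were among the 5814 genes tested. Each was measured by 1 probe, printed as 7 spots, and all of its kept spots were well above background on all 9 arrays. The rule itself uses no measured value, although the genes were proposed with earlier results of these data known.

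The RNA came from Saccharomyces cerevisiae BY4743, a diploid laboratory strain that lacks HIS3, LEU2 and URA3, and the probes of these 3 genes were not well above background on any array. There were 3 groups of 3 arrays each. The HenGC-treated group had received a GC preparation from the mushroom hen of the woods and the SoyGC-treated group one from soybean, each at 40 ug/ml for 17 h. The vehicle control group carries no dose or time in the labels. GC is not spelled out there. The series' title speaks of a sphingolipid, and the letters commonly stand for glucosylceramide in that field, but no structure or purity is given for either preparation. The sources used here give neither the growth medium nor its iron content. The labels number the samples of a group and do not say whether each came from its own culture, so the p-values below cover the spread between samples only, and that spread may be technical.

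Yeast takes up iron at the plasma membrane by several routes. In the reductive route, cell surface metalloreductases turn ferric into ferrous iron, which the multicopper oxidase Fet3 and the permease Ftr1 then carry in as a complex. Fet3 needs copper, which the copper transporter Ctr1, the chaperone Atx1 and the Golgi pump Ccc2 supply. Fet4 is a low-affinity transporter of ferrous iron that also carries copper and zinc. The Fit proteins are mannoproteins anchored in the cell wall that help retain siderophores, the iron chelators that microbes release. Arn1, Arn2, Sit1 and Enb1 are transporters of ferric siderophores, each with its own range of substrates, and Enb1 takes up enterobactin. The transcription factors Aft1 and Aft2 switch on most of these genes when the supply of mitochondrial iron-sulfur clusters is low, while FET4 is also under the repressor Rox1, which heme and oxygen keep active.

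The arrays were alike in technical quality: between 92.4% and 95.8% of spots were well above background, none was saturated, and between 0.527% and 1.17% of spots were marked as outliers. Vehicle 3 stood apart from the other vehicle arrays, in that 515 of 5814 genes differed by over 2-fold from the mean of the other vehicle arrays, 503 of them lower. None of the 10 iron uptake genes was over 2-fold away there. Their differences ran from -0.18 to 0.47 on the log2 scale, with FIT2 the highest. SoyGC 1 departed from its own group much as vehicle 3 did. Over the 5814 genes the deviations of these arrays from their group means had r = 0.68, the highest of any pair across groups. By slide, replicates 1 and 2 of vehicle and of SoyGC shared 1 slide and those of HenGC were on another. The replicate 3 arrays of the 3 groups shared a slide that was scanned on another day. For replicates 1 and 2, HenGC treatment and slide therefore cannot be told apart.

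Levels below are log2 signals relative to the 75th percentile of the array, so a level under 0 lies below that percentile. Probes differ in brightness for the same amount of RNA, so the level of one gene was not set against that of another. Differences are differences of group means on the same log2 scale with their standard error (SE), and a gene was called where its adjusted p, from limma over the 5814 genes with Benjamini-Hochberg adjustment, was under 0.05. Levels are relative within an array, so a change in cell number or in the total RNA per cell would not be seen.

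With SoyGC, FTR1 and ENB1 rose and FIT3 fell. FTR1 was 1.44-fold higher than with vehicle, ENB1 was 1.46-fold higher and FIT3 was 1.28-fold lower. The other 7 genes did not pass the test. With HenGC none of the 10 passed, and ENB1 had the largest difference of the 10, 1.54-fold higher with an adjusted p of 0.0639 from limma. The direct comparison of HenGC with SoyGC called none of them. The 3 calls of 10 with SoyGC stand beside 9.27% of all genes tested, with 3.34% called higher and 5.93% called lower. The 0 calls of 10 with HenGC stand beside 1.19% of all genes. Both treated groups were compared with the same 3 vehicle arrays.

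**Figure D1:**
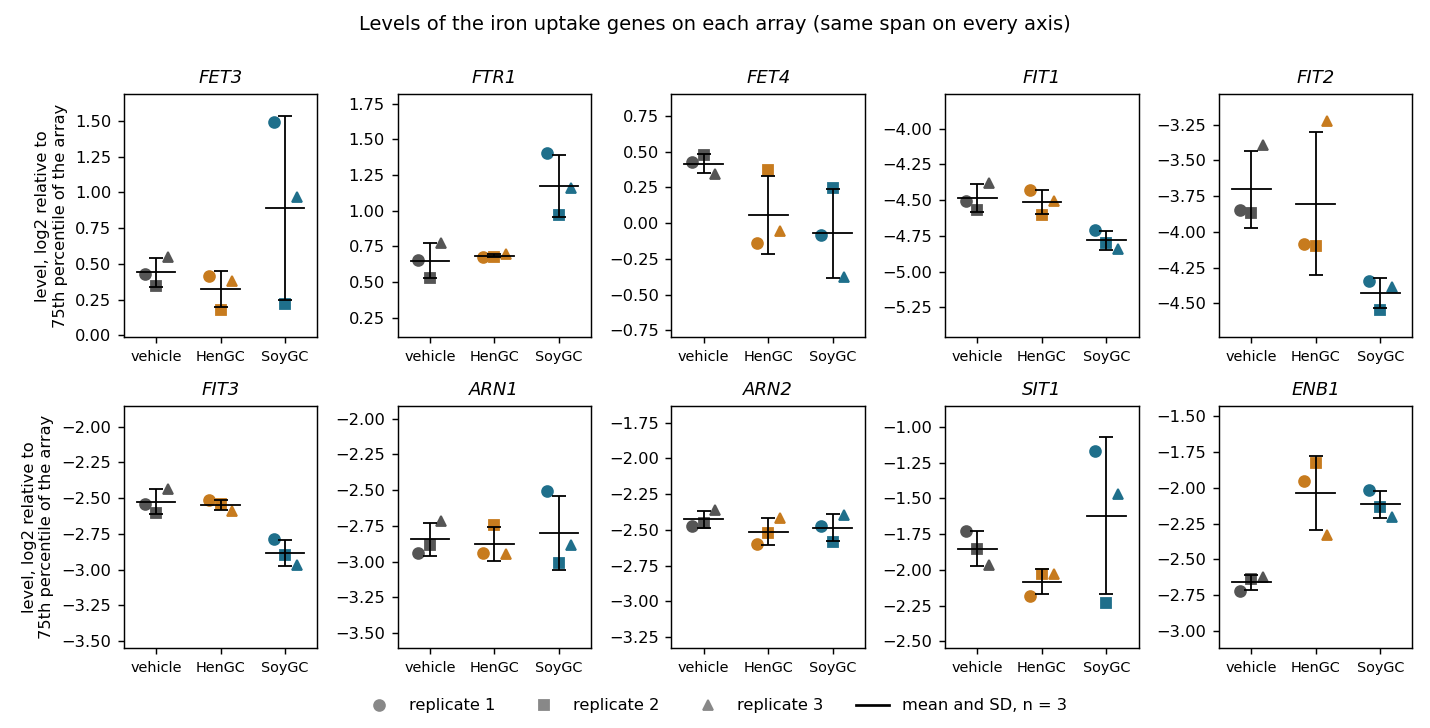
Level of each iron uptake gene on each array, as log2 relative to the 75th percentile of the array (y axis, the same span in every panel), for the vehicle, HenGC and SoyGC groups (x axis). Points are single arrays, with the shape giving the replicate number, and lines with bars are the mean and SD of 3 arrays. The SoyGC points of FTR1 and ENB1 lie above all vehicle points, those of FIT1, FIT2, FIT3 and FET4 lie below them, and FET3 and SIT1 spread widest within SoyGC.

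The reductive pair is described first. FTR1 (YER145C), the permease of the complex, had levels of 0.65, 0.53 and 0.77 in vehicle 1 to 3. It had 0.68, 0.68 and 0.70 with HenGC and 1.40, 0.97 and 1.16 with SoyGC. All SoyGC arrays were above every vehicle and HenGC array, and the HenGC arrays lay within the vehicle range. The mean was 0.65 ± 0.12 (SD, n = 3) in vehicle, 0.69 ± 0.01 (SD, n = 3) with HenGC and 1.18 ± 0.22 (SD, n = 3) with SoyGC. SoyGC exceeded vehicle by 0.52 ± 0.12 (SE; 95% confidence interval 0.25 to 0.80; adjusted p = 0.0381, limma). Among the replicates scanned on the first day the difference was 0.59, and between the replicate 3 arrays, 1 per group, it was 0.39. HenGC differed from vehicle by 0.03 ± 0.12 (SE), with an interval of -0.24 to 0.31.

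FET3 (YMR058W), the oxidase that works with Ftr1, had levels of 0.43, 0.34 and 0.55 in vehicle, 0.41, 0.18 and 0.38 with HenGC and 1.50, 0.22 and 0.96 with SoyGC. SoyGC 1 and SoyGC 3 were above all other arrays, and SoyGC 2 was below all vehicle arrays. The difference of SoyGC from vehicle was 0.45 ± 0.27 (SE; interval -0.15 to 1.06; adjusted p = 0.314, limma), close in size to that of FTR1 with an SE more than double. It was 0.15 without SoyGC 1 and 0.79 without SoyGC 2, with an adjusted p between 0.0582 and 0.644 over all arrays left out in turn. The HenGC difference was -0.12 ± 0.27 (SE, adjusted p = 0.806, limma).

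FET4 (YMR319C), the low-affinity transporter, had levels of 0.43, 0.48 and 0.34 in vehicle, -0.14, 0.37 and -0.06 with HenGC and -0.09, 0.25 and -0.37 with SoyGC. Every SoyGC array was below every vehicle array, while HenGC 2 lay within the vehicle range. Neither difference passed the test. It was -0.49 ± 0.18 (SE; interval -0.89 to -0.09; adjusted p = 0.114, limma) with SoyGC and -0.36 ± 0.18 (SE, adjusted p = 0.278, limma) with HenGC. The treated means, 0.06 ± 0.27 and -0.07 ± 0.31 (SD, n = 3 each), lay within each other's spread, and the vehicle mean was 0.42 ± 0.07 (SD, n = 3).

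The 3 wall mannoprotein genes were all below vehicle on every SoyGC array. Of all genes tested, 34.2% had SoyGC arrays entirely outside the vehicle range, in either direction. FIT3 passed the test and FIT1 and FIT2 did not, but which of them passed depended on the batch term. With scan day as a block FIT2 (adjusted p = 0.032, limma) and FIT3 (0.0398) both passed, and with slide as a fixed block FIT2 (0.0417) passed and FIT3 (0.0765) did not. FIT3 (YOR383C) had levels of -2.54, -2.61 and -2.43 in vehicle, -2.51, -2.54 and -2.59 with HenGC and -2.79, -2.90 and -2.97 with SoyGC. The SoyGC arrays were the 3 lowest of all 9. The mean was -2.53 ± 0.09 in vehicle, -2.55 ± 0.04 with HenGC and -2.88 ± 0.09 with SoyGC (SD, n = 3 each). FIT3 fell by 0.36 ± 0.09 (SE; interval -0.56 to -0.15; adjusted p = 0.0441, limma) with SoyGC, with differences of -0.27 among the arrays of the first scan day and -0.54 between the replicate 3 arrays. With HenGC the difference was -0.02 ± 0.09 (SE; interval -0.23 to 0.18).

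FIT2 (YOR382W) had levels of -3.85, -3.87 and -3.39 in vehicle, -4.08, -4.10 and -3.23 with HenGC and -4.34, -4.55 and -4.39 with SoyGC. Replicate 3 was the highest array in both the vehicle and the HenGC group, and the SoyGC arrays were the lowest 3. The SoyGC difference of -0.72 ± 0.24 (SE; interval -1.26 to -0.19), 1.65-fold lower, was the largest of any iron uptake gene, and its adjusted p was 0.0859 (limma). Over 21 alternative settings it ran from -0.81 to -0.57 and passed in 5, as many as FIT3, with an adjusted p between 0.021 and 0.364. It was -0.57 without vehicle 3 (adjusted p = 0.192, limma), and without HenGC 3, which enters the shared estimate of the spread, it was -0.72 with an adjusted p of 0.0432. HenGC differed from vehicle by -0.10 ± 0.24 (SE, adjusted p = 0.811, limma).

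FIT1 (YDR534C) had levels of -4.50, -4.57 and -4.38 in vehicle, -4.43, -4.60 and -4.51 with HenGC and -4.71, -4.80 and -4.84 with SoyGC. The SoyGC arrays again were the 3 lowest, by less than in FIT2. The SoyGC difference was -0.30 ± 0.09 (SE; interval -0.51 to -0.09; adjusted p = 0.0755, limma), and the HenGC difference was -0.03 ± 0.09 (SE, adjusted p = 0.859, limma).

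In the gene order of the reference table, FIT2 and FIT3 are next to each other, and the gene beyond FIT3 is FRE5, a metalloreductase gene whose probe reached the well-above-background mark on 0 of the 9 arrays. FIT1 lies elsewhere, beside HSP31, which encodes a stress-inducible chaperone and differed in the other direction with SoyGC, by 0.60 (adjusted p = 0.0322, limma). The other neighbours that passed the test with SoyGC were PAU13 beside ARN2, at -0.76 (adjusted p = 0.0476, limma), and AVT2 beside SIT1, at -0.58 (adjusted p = 0.0285, limma). The rank of a gene counted from the nearer end of its chromosome was between 5 and 14 for the FIT genes, FET4 and the siderophore transporter genes, 52 for FTR1 and 194 for FET3.

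Among the siderophore transporter genes, ENB1 passed the test with SoyGC, and neither ENB1 with HenGC nor any of the others in either comparison did. ENB1 (YOL158C), the enterobactin transporter gene, had levels of -2.72, -2.64 and -2.62 in vehicle, -1.95, -1.83 and -2.33 with HenGC and -2.01, -2.13 and -2.20 with SoyGC. Every treated array was above every vehicle array, and HenGC 3 was the lowest of the treated ones. The mean was -2.66 ± 0.05 in vehicle, -2.04 ± 0.26 with HenGC and -2.12 ± 0.10 with SoyGC (SD, n = 3 each). ENB1 rose by 0.54 ± 0.13 (SE; interval 0.24 to 0.84; adjusted p = 0.0419, limma) with SoyGC, and the difference was 0.61 among the arrays of the first scan day and 0.42 between the replicate 3 arrays.

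With HenGC the ENB1 difference was larger, 0.62 ± 0.13 (SE; interval 0.32 to 0.92), but did not pass the test, with an unadjusted p of 0.0011 and an adjusted p of 0.0639 (limma). It was 0.79 on the first scan day and 0.29 between the replicate 3 arrays. It passed in 4 of 21 alternative settings: with scan day as a block (adjusted p = 0.0434, limma), on the first scan day alone (0.031), with array weights (0.00265) and without HenGC 3 (0.77; adjusted p = 0.033). With slide as a fixed block the difference was 0.36 and rested on HenGC 3, since HenGC 1 and HenGC 2 were alone on their slide. HenGC and SoyGC differed from each other by 0.08 ± 0.13 (SE; interval -0.22 to 0.38; adjusted p = 0.877, limma).

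SIT1 (YEL065W), a ferrioxamine B transporter gene, had levels of -1.73, -1.85 and -1.97 in vehicle, -2.19, -2.03 and -2.03 with HenGC and -1.17, -2.23 and -1.47 with SoyGC. SoyGC 1 and SoyGC 3 were the highest of all arrays and SoyGC 2 was the lowest. All HenGC arrays were below all vehicle arrays, with a difference of -0.23 ± 0.23 (SE, adjusted p = 0.546, limma), and the SoyGC difference of 0.23 ± 0.23 (SE, adjusted p = 0.553, limma) changed between 0.0018 and 0.53 with the array left out.

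ARN1 (YHL040C) had levels of -2.94, -2.88 and -2.71 in vehicle, -2.94, -2.74 and -2.95 with HenGC and -2.51, -3.01 and -2.88 with SoyGC. SoyGC 1 was the highest and SoyGC 2 the lowest of all arrays, so the groups overlapped, and the differences were -0.03 ± 0.14 with HenGC (adjusted p = 0.902, limma) and 0.05 ± 0.14 with SoyGC (SE; adjusted p = 0.847, limma). ARN2 (YHL047C) had levels of -2.47, -2.45 and -2.36 in vehicle, -2.60, -2.52 and -2.41 with HenGC and -2.47, -2.59 and -2.40 with SoyGC. The groups overlapped here too, and the intervals of its differences were -0.30 to 0.12 with HenGC and -0.27 to 0.15 with SoyGC. The files do not give probe sequences, so how far a probe of one ARN family gene also reads another was not tested.

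**Figure D2:**
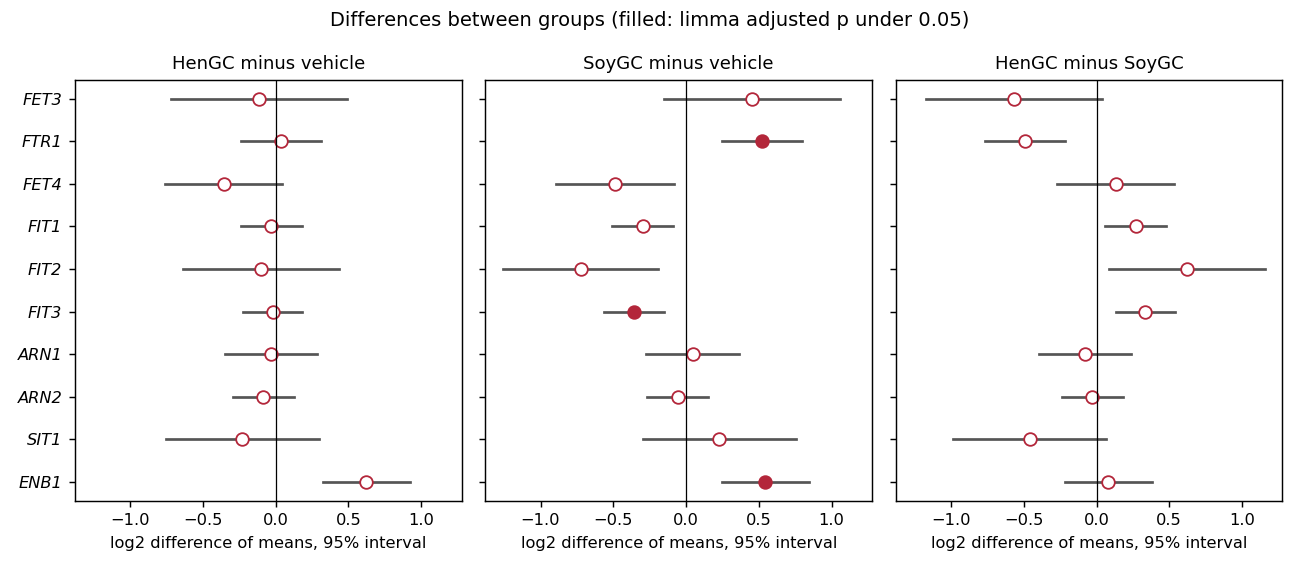
Difference of group means of each iron uptake gene on the log2 scale (x axis) with its 95% confidence interval, for HenGC minus vehicle, SoyGC minus vehicle and HenGC minus SoyGC, 3 arrays per group. Filled points passed an adjusted p of 0.05 in limma: FTR1, FIT3 and ENB1 with SoyGC.

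As a set, the 10 genes did not move in one direction. With SoyGC, 5 differences were positive and 5 negative, and their median was -0.01 against 0.00 over all genes tested. With HenGC, 2 were positive and 8 negative, with a median of -0.06 against 0.00. Counted by overlap, 6 of the 10 genes had SoyGC arrays entirely outside the vehicle range, beside 34.2% of all genes, and 2 of 10 had HenGC arrays outside it, beside 30% of all genes. At an unadjusted p under 0.05, limma gave 6 of 10 with SoyGC, beside 27.6% of all genes, and 1 of 10 with HenGC, beside 21.4%.

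The 3 SoyGC arrays varied among themselves. For 5 of the 10 genes, FET3, FTR1, FIT2, ARN1 and SIT1, SoyGC 1 was the highest and SoyGC 2 the lowest of the group. Both were on the same slide. Their ranges within SoyGC were 1.28 for FET3, 1.06 for SIT1, 0.50 for ARN1, 0.43 for FTR1 and 0.20 for FIT2. For FET4, FIT1, FIT3 and ENB1, SoyGC 3 was the lowest. Within vehicle the widest range of any of the 10 genes was 0.48, for FIT2, where vehicle 3 was highest.

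HenGC and SoyGC were given at the same dose and time, so their arrays were also set against each other. Replicates 1 and 2 of HenGC were on another slide than those of SoyGC, so preparation and slide cannot be told apart for them. Only the replicate 3 arrays shared a slide. FTR1 was 1.40-fold lower with HenGC than with SoyGC, a difference of -0.49 ± 0.12 (SE; interval -0.76 to -0.21; unadjusted p = 0.00299; adjusted p = 0.262, limma). FIT3 was 1.26-fold higher with HenGC, by 0.34 ± 0.09 (SE; interval 0.13 to 0.54; unadjusted p = 0.0048; adjusted p = 0.279, limma). FIT2 was higher with HenGC by 0.62 ± 0.24 (SE, adjusted p = 0.354, limma) and FIT1 by 0.27 ± 0.09 (SE, adjusted p = 0.313, limma).

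These 4 genes did not overlap between the treated groups, beside 21.5% of all genes, and the same 4 had an unadjusted p under 0.05, beside 12.7%. No gene of the 5814 passed the adjusted threshold in this comparison, a background of 0%, while 738 genes had an unadjusted p under 0.05. With array weights 23 of all genes passed in limma, 19 higher and 4 lower with HenGC, and with no filter on dim probes 1 did. None of the 10 iron uptake genes was among them. For the other 6 genes the differences lay between -0.57 for FET3 and 0.13 for FET4. The intervals of FET3 (-1.17 to 0.04) and SIT1 (-0.98 to 0.07) are wide, and a p that misses the threshold does not show that the preparations act alike.

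Other genes of iron handling were read from 10 lists holding 85 genes, of which 80 were tested. With SoyGC 6 of the 80 passed the test, or 7.5%, beside 9.27% of all genes, and 3 were higher and 3 lower. With HenGC 0 of 80 passed, beside 1.19% of all genes, and 14 of 80 had an unadjusted p under 0.05, beside 21.4%. The median difference over the 80 genes was -0.01 with SoyGC and 0.01 with HenGC.

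Metalloreductases at the cell surface supply ferrous iron to Fet3 and Ftr1. The list took metalloreductase genes wherever in the cell their proteins act. Of the 6 tested, FRE1 and FRE4 rose with SoyGC, 33.3% of the list beside 3.34% of all genes called higher. The other 4 did not pass, and 3 of the 6 differences were negative. FRE8 had the lowest, -0.40 ± 0.19 (SE, adjusted p = 0.219, limma), with every SoyGC array below every vehicle array. FRE1, which encodes a main surface reductase of iron and copper, had levels of -3.42, -3.40 and -3.62 in vehicle, -3.04, -3.30 and -3.47 with HenGC and -2.63, -3.04 and -2.76 with SoyGC. All SoyGC arrays were above all vehicle arrays, and the difference was 0.67 ± 0.15 (SE, adjusted p = 0.0345, limma). FRE4 differed by 0.51 ± 0.12 (SE, adjusted p = 0.0381, limma), with vehicle arrays between -5.68 and -5.49 and SoyGC arrays between -5.11 and -4.92. With HenGC the differences were 0.21 ± 0.15 for FRE1 and 0.18 ± 0.12 for FRE4 (SE; adjusted p = 0.399 and 0.370, limma). FRE5 and FRE7 were not tested, since their probes were well above background on 0 and 1 of the 9 arrays.

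Over all genes tested, 9.27% passed with SoyGC and 1.19% with HenGC. None of the 7 copper supply genes, the 9 regulators of iron genes or the 3 tested genes of vacuolar iron passed in either comparison. The smallest adjusted p in these lists was 0.0866 for CTR2 (-0.38 with SoyGC), which encodes a vacuolar copper transporter, 0.175 for YAP5 (0.33 with HenGC), an activator of genes for iron storage, and 0.0533 for CCC1 (-0.48 with SoyGC), which carries iron into the vacuole, all from limma. At an unadjusted p under 0.05, limma gave 4 of the 7 copper supply genes with SoyGC, beside 27.6% of all genes. Of these, CTR1 (0.36) and CCC2 (0.40) were higher, and CTR2 (-0.38) and GEF1 (-0.27) lower. Among 6 other genes under Aft1 or Aft2, BIO5 and PRY1 fell with SoyGC, 33.3% of the list beside 5.93% of all genes called lower. In this list 3 of the 6 differences with SoyGC were positive, the highest 0.40 for MRS4 (adjusted p = 0.243, limma), and the median was 0.06. BIO5, which encodes a transporter of a biotin precursor, differed by -0.82 ± 0.14 (SE, adjusted p = 0.0244, limma), and PRY1, a secreted sterol-binding protein, by -0.62 ± 0.13 (SE, adjusted p = 0.0337, limma).

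ISU2 alone passed the test among 20 genes of iron-sulfur cluster assembly, 5% of the list with SoyGC beside 9.27% of all genes. It encodes a mitochondrial scaffold on which clusters are built. Its levels were -1.30, -1.53 and -1.38 in vehicle, -0.42, -0.84 and -0.82 with HenGC and -0.28, -0.77 and -0.48 with SoyGC, and every treated array was above every vehicle array. It rose by 0.89 ± 0.16 (SE, adjusted p = 0.0249, limma) with SoyGC, and the HenGC difference was 0.71 ± 0.16 (SE, adjusted p = 0.0671, limma). In this list 16 of 20 differences with SoyGC were positive, with a median of 0.15. With HenGC 15 of 20 were positive, with a median of 0.09. Over all 5814 genes tested, 2933 differences were positive with SoyGC and 2910 with HenGC, each with a median of 0.00.

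HEM13 was the single one of 8 heme synthesis genes that passed, 12.5% of the list with SoyGC beside 9.27% of all genes. It encodes coproporphyrinogen oxidase, an enzyme of the pathway that uses oxygen, and like FET4 it is a target of Rox1. Its levels were 3.22, 3.48 and 3.66 in vehicle, 2.41, 3.69 and 3.13 with HenGC and 1.95, 2.65 and 1.80 with SoyGC. It fell by 1.32 ± 0.32 (SE, adjusted p = 0.0421, limma) with SoyGC, 2.50-fold, and the HenGC arrays overlapped the vehicle arrays (-0.37 ± 0.32, SE, adjusted p = 0.485, limma). None of 10 iron-using enzymes, 8 other metal transporters or 3 regulators of FET4 passed. The smallest adjusted p in each was 0.159 for ILV3 (-0.29), 0.101 for SMF2 (-0.33) and 0.167 for HAP1 (-0.36), all with SoyGC and from limma. ROX1 itself differed by 0.33 ± 0.40 with SoyGC and 0.42 ± 0.40 with HenGC (SE; adjusted p = 0.624 and 0.520, limma). Whether Rox1 has a part in the differences of HEM13 or FET4 was not tested.

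**Figure D3:**
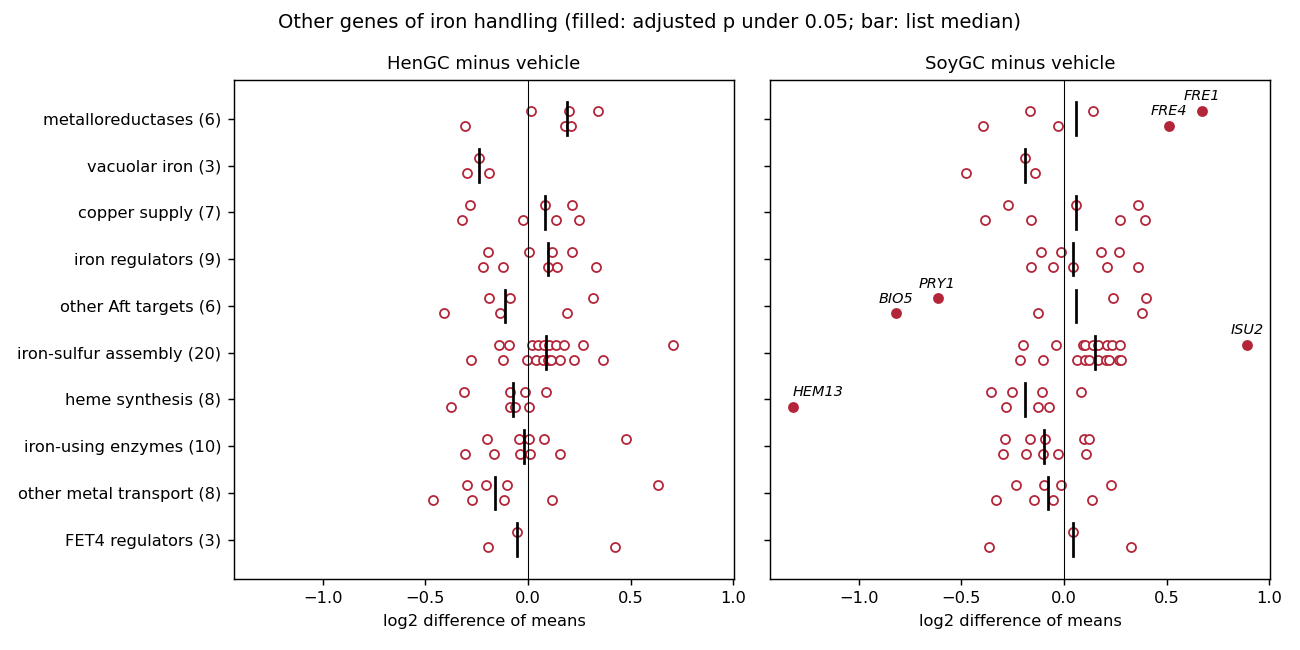
Difference of group means on the log2 scale (x axis) for the tested genes of 10 lists of iron handling (y axis, number tested in brackets), for HenGC minus vehicle and SoyGC minus vehicle, 3 arrays per group. Each circle is a gene, filled where its adjusted p in limma was under 0.05, and bars are list medians. The 6 filled genes are all with SoyGC.

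Genes that varied most like the iron uptake genes over the 9 arrays were found from Pearson's r with the centred mean of each role group. These are descriptions over arrays that share their group means. For FET3 with FTR1 the closest were RPA135 (r = 0.958), a subunit of RNA polymerase I, PRS3 (0.946), an enzyme of nucleotide precursor synthesis, and CCC2 (0.941), the pump that gives Fet3 its copper. For FET4 they were YOL075C (0.973), DUR12 (0.970) and UBR2 (0.968). For the FIT genes they were RIM4 (0.965), GAT2 (0.958) and SDS24 (0.955). Their differences with SoyGC lay between -0.63 and -0.57, a direction that choosing them by likeness to the FIT mean fixes. For the siderophore transporter genes they were TIS11 (0.912), whose protein speeds decay of mRNAs when iron is short, CIN4 (0.891) and PIR5 (0.851). CCC2 had its SoyGC levels in the same order as FET3, at -1.74, -2.38 and -2.13, and so had TIS11, at -2.08, -2.93 and -2.57. Choosing CCC2 and TIS11 by likeness over these same arrays favours such a shared order, so it is no separate evidence. Neither passed the test with SoyGC, with differences of 0.40 for CCC2 (adjusted p = 0.148, limma) and 0.27 for TIS11 (adjusted p = 0.402, limma).

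The 3 calls with SoyGC kept their direction in all 21 alternative settings but often lost the threshold. FTR1 passed in 9 of them, with differences from 0.41 to 0.63, ENB1 in 10, from 0.47 to 0.61, and FIT3 in 5, from -0.42 to -0.27. When single arrays were left out in turn, FTR1 passed only without vehicle 3 (0.58, adjusted p = 0.0494, limma) and ENB1 only without HenGC 2 or HenGC 3. FIT3 passed in none of these 9 fits. The highest adjusted p was 0.119 for FTR1, 0.115 for ENB1 and 0.144 for FIT3. Without vehicle 3 the differences were 0.56 for ENB1 (adjusted p = 0.0671, limma) and -0.31 for FIT3 (adjusted p = 0.09, limma). Of the 6 other genes called, ISU2 passed in 16 of the 21 settings, BIO5 in 14, PRY1 in 12, and FRE1, FRE4 and HEM13 in 10 each. Their count with single arrays left out was 0 without vehicle 2, SoyGC 1 or SoyGC 3, 1 without SoyGC 2, 2 without vehicle 3 and 3 without vehicle 1.

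**Figure D4:**
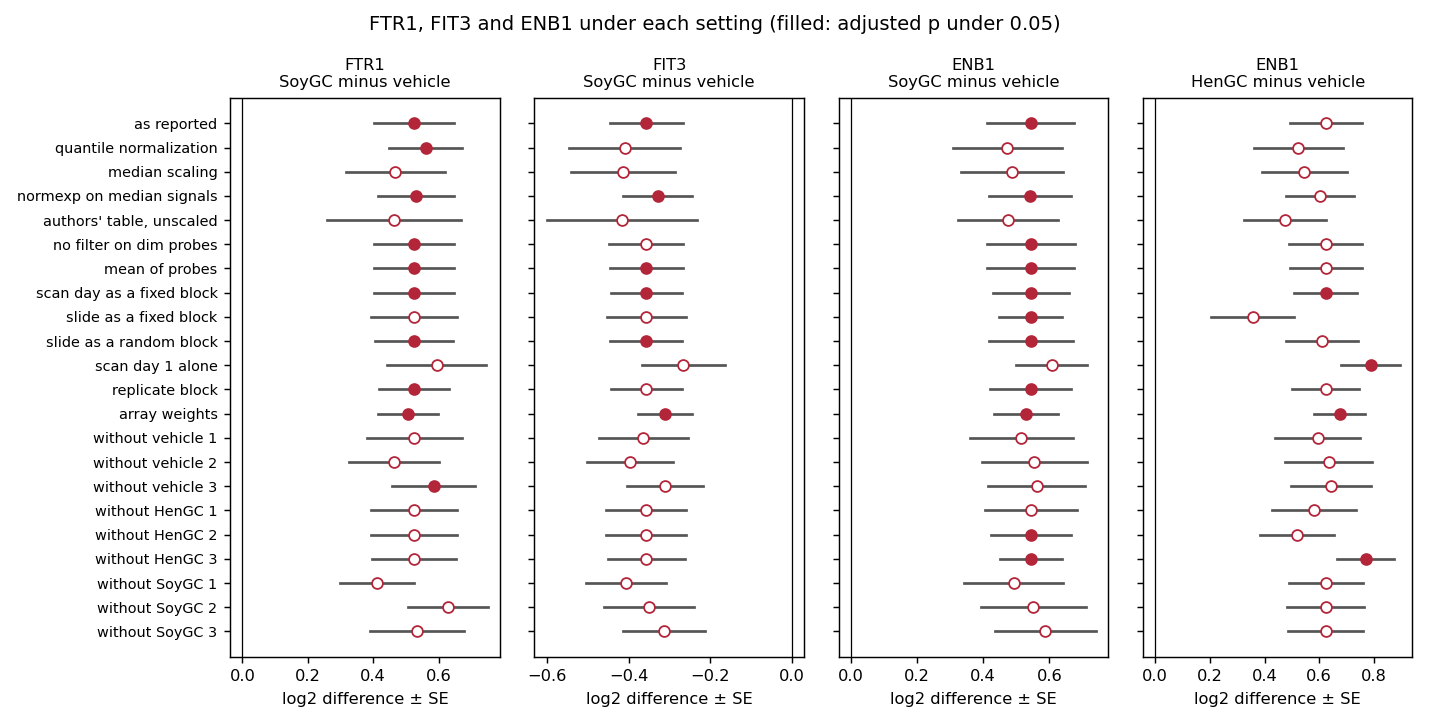
Difference of FTR1, FIT3 and ENB1 on the log2 scale with its SE (x axis) as reported and under each of 21 alternative settings (y axis), filled where the adjusted p in limma was under 0.05. All points keep the sign of the value as reported, and ENB1 with HenGC is filled in 4 settings.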

How the data were processed

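Total RNA of 9 samples was labelled with Cy3 and read in 1 colour, with 1 array per sample. The deposited scanner files give each spot's intensity on a linear scale. Per the file headers, background subtraction and spatial detrending were done on each array by itself, and nothing was scaled between arrays. Agilent Feature Extraction (11.0.1.1) and R (version 3.0.2) appear in the submitters' processing notes. The authors' deposited value table holds the same intensity averaged over the 7 spots of a probe (100% of values within a relative tolerance of 1e-06) and served as an alternative. From the deposited intensities the log2 was taken here, less the 75th percentile of the array's non-control spots. Spots marked as outliers were dropped (1 spot of ENB1, none of the other 9 genes), spots of a probe averaged, and probes kept where over 50% of spots passed the software's well-above-background mark on each of the 3 arrays of some group. The brightest probe stood for a gene. Names came from systematic names matched to a RefSeq gene table of assembly R64. It is not the build in the headers, so no coordinates are given. Of 6256 probes 5765 matched, 462 kept the file's name and 29 had none.

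Means of the 3 groups were fitted jointly over the 9 arrays in R 4.3.3 by limma's lmFit and eBayes (limma version 3.58.1), with Benjamini-Hochberg adjustment over 5814 genes at 0.05. With 3 arrays per group, their number limits the precision. The script was tested on simulated data. No mean signal per spot is given, so the normexp alternative used median signals. Of the lists' 85 genes, 82 had a probe: FTH1, LSO1 and ICY2 had none matched. The text names all 10 iron uptake genes, in each list the genes past the threshold or else the one with the smallest adjusted p, and for each role group the 3 other genes of highest r. FRE8, MRS4, CTR1, GEF1, ROX1, HSP31, PAU13 and AVT2 were given with their values after these were seen. Members and lists were chosen with earlier results of these data known.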

Additional observations from a re-analysis of the deposited data

How the results depend on the processing

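Each result was recomputed under 21 alternatives. The 3 iron uptake genes called with SoyGC became 5 with array weights, 4 with scan day as a block, 1 with quantile normalization, 0 with median scaling, 0 with the authors' unscaled table and 0 on the first scan day alone. They were 2 with slide as a fixed block (ENB1 and FIT2), 2 with no filter on dim probes, and from 0 to 2 with single arrays left out. The 0 called with HenGC became 1, ENB1 each time, with array weights, with scan day as a block and on the first scan day alone, and ran from 0 to 1 with single arrays left out. The 6 other genes of iron handling called with SoyGC became 12 with array weights, 3 with quantile normalization, 2 with slide as a fixed block, 0 with the authors' table and 0 on the first scan day alone, and ran from 0 to 6 with single arrays left out. The 0 called with HenGC became 8 with array weights and 1, ISU2, with the replicate block, and stayed at 0 with each array left out. HenGC against SoyGC gave 0 of both kinds throughout, and 23 over all genes with array weights and 1 with no filter. No call reversed its sign. With slide as a fixed block the HenGC differences rest on HenGC 3, the only HenGC array that shared a slide with another group. The cause of the other shifts was not tested. The median over all genes moved by over 0.1 under 1 setting, the authors' unscaled table, to -0.15 for HenGC against vehicle. With HenGC the differences of FTR1, FIT1, FIT2, FIT3 and ARN1, none called, took both signs among the settings, as did those of ARN1 and SIT1 with SoyGC. Counts over all genes with SoyGC ran from 539 as reported to 1246 with array weights, 315 with median scaling, 188 with slide as a fixed block, 35 on the first scan day alone and 8 with the authors' table, and from 2 (without SoyGC 3) to 387 (without vehicle 1) with single arrays left out. With HenGC, 69 became 862 with array weights, 125 with scan day as a block, 45 with no filter, 37 with quantile normalization, 26 with median scaling, 3 with the authors' table and 0 with slide as a fixed block, and from 3 (without vehicle 2) to 50 (without vehicle 3) with single arrays left out. Replicate numbers are shared between groups. Of 9 same-number pairs of arrays, 5 had correlated deviations with r over 0.1, in a range of -0.65 to 0.56. Since not every pair exceeded 0.1, the numbers were not taken to pair the samples. Against that, 6 of 9 arrays correlated best with their own number, a hint of pairing from the data, and the replicate 3 arrays share a slide and scan day. The replicate block gave 3 iron uptake genes with SoyGC (ENB1, FIT2 and FTR1; FIT3 had an adjusted p of 0.0518, limma) and 0 with HenGC, and 6 and 1 of the other iron genes.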
